A study of Mus musculus with 18 samples.

Results

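Genes that mark the nervous system of the gut wall were followed in the mouse ileum, 8 in all: *Ret*, *Elavl4*, *Chat*, *Nos1*, *Vip*, *Tac1*, *Sox10* and *S100b*. These 8 genes were chosen by symbol from the 55487 genes counted, with no threshold on their values but with earlier results of these libraries known, so their differences between genotypes are given as descriptions of these mice and are not independent evidence for the choice. Whole-thickness ileum of 18 chow-fed mice on the C57BL6/J background, 8 to 13 weeks old, was sequenced with 1 library per mouse. Of these, 6 mice were IEC-*Ppara* homozygous and 6 were IEC-*Ppara* heterozygous, which carry 2 or 1 copies of CAG-*Ppara*,-*EGFP* at the *Col1a1* locus together with *Villin-CreERT2*, and 6 were littermate controls that lacked *Villin-CreERT2*. All mice, controls included, received tamoxifen at 100 mg/kg in 3 daily injections and were collected 2 weeks later. *Villin-CreERT2* acts in the intestinal epithelium, so the transgene is switched on in epithelial cells and not in neurons or glia. In whole-thickness tissue the cells that held the RNA of each member, *Ret* included, were not identified. There were 3 females and 3 males among the controls, and 2 females and 4 males in either IEC-*Ppara* genotype.

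The enteric nervous system lies in the gut wall as the myenteric plexus, between the muscle layers, and the submucosal plexus beneath the mucosa. It is built by neural crest cells that need the receptor tyrosine kinase RET, and RET is kept in mature enteric neurons. Excitatory motor neurons release acetylcholine and tachykinins, inhibitory motor neurons release nitric oxide and vasoactive intestinal peptide, and enteric glia surround both. Whole-thickness tissue mixes these cells with epithelium, muscle, fibroblasts and immune cells, and a lower level of a neuronal or glial gene cannot be told apart as fewer cells of that type or less RNA per cell.

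Library totals of counted reads lay between 38528522 and 50376371. As a check of the labels, *Ppara* ranged from 25.8 to 47.4 CPM (counts scaled to the library total) in controls. It ranged from 107 to 196 CPM in heterozygous mice and from 184 to 279 CPM in homozygous mice, so no control overlapped an IEC-*Ppara* mouse. The heterozygous and homozygous ranges overlapped, so this check did not fully separate these genotypes from each other. A smooth muscle score, the mean log2 CPM of 10 muscle genes, set 2 libraries apart. Control replicate 6 was at 4.83 and heterozygous replicate 3 at 5.14, and the other 16 libraries lay between 7.02 and 8.86, with homozygous replicate 3 highest. All results below use all 18 libraries unless a library is said to be left out. All 8 members were measured in every library, with the lowest count at 13 (*S100b*) and the highest at 1774 (*Ret*). All 8 were among the 15740 protein-coding genes tested, and 6 of the 8 also passed the study's own filter of more than 3 CPM in at least 4 libraries. *Chat* and *S100b* did not pass it, since neither was above 3 CPM in any library.

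Per gene length, as FPKM (counts scaled to gene length and library total), the members formed a high and a low set. In controls *Vip* was highest at 5.39 FPKM ± 2.02 (SD, n = 6), followed by *Ret* at 2.52 ± 0.521 and *Tac1* at 2.33 ± 0.425. The level of *Tac1* lay within 1 SD of that of *Ret*. *S100b* at 0.995 ± 0.464 and *Sox10* at 0.915 ± 0.513 came next, and the 2 glial genes lay within 1 SD of each other. *Nos1* at 0.551 ± 0.414, *Chat* at 0.400 ± 0.111 and *Elavl4* at 0.391 ± 0.188 FPKM were lowest. *Chat* and *Elavl4* lay within 1 SD of each other, and *Nos1* differed from both by less than its own SD. In homozygous mice *Ret*, at 4.66 ± 0.864 FPKM, stood above *Vip* at 4.46 ± 1.03 FPKM, a gap smaller than either SD.

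*Ret* encodes the receptor for the GDNF family of ligands. It was the member whose homozygous and control mice did not overlap. In controls it ranged from 12.2 to 22.3 CPM with a median of 17.1, in heterozygous mice from 19.8 to 24.9 with a median of 21.2, and in homozygous mice from 23.9 to 40.3 with a median of 31.7. Every homozygous library was above every control library, and 80 of the 15740 genes tested, 0.508%, showed this. The lowest homozygous mouse lay below 2 heterozygous mice, and the heterozygous and control ranges overlapped. *Ret* lies at chr6:118151745-118197718 on the minus strand of GRCm38 (ENSMUSG00000030110).

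**Figure D1:**
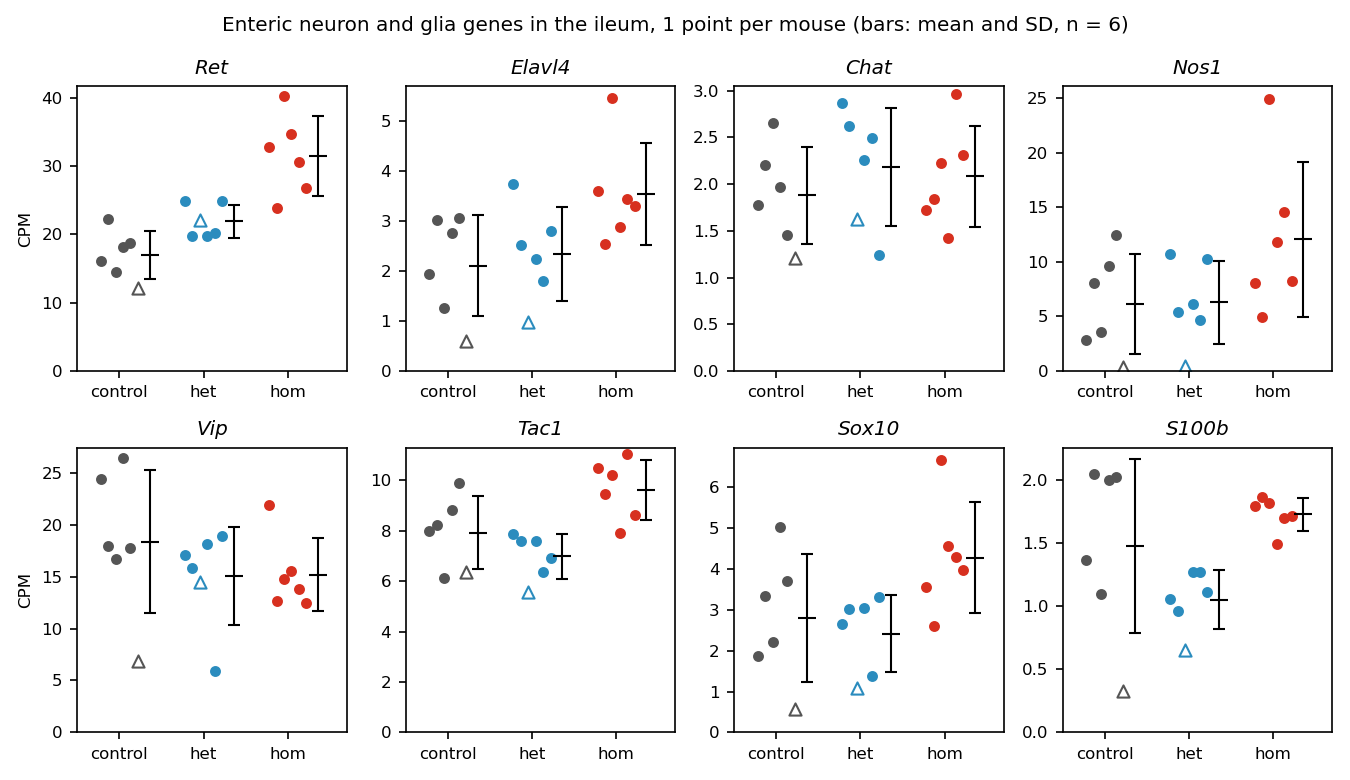
CPM (y axis) of each member in 6 control, 6 heterozygous and 6 homozygous mice, with 1 point per mouse and the mean and SD beside each group. Open triangles are control replicate 6 and heterozygous replicate 3, the libraries of lowest smooth muscle score. The 6 homozygous mice are above all controls for *Ret*, at 23.9 to 40.3 CPM against 12.2 to 22.3, and the triangles are the lowest points of both of their groups for *Elavl4*, *Nos1*, *Sox10* and *S100b*.

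Against controls, *Ret* rose in homozygous mice by 0.89 ± 0.12 on the log2 scale (SE), a fold of 1.85, with an adjusted p of 0.000357 by edgeR's quasi-likelihood test over all 15740 genes. It was the only one of the 8 members called, where 53 of all genes tested, 0.337%, were called. The call held in all 18 fits that left out 1 library each, with log2 fold changes from 0.83 to 0.97. Without the 2 libraries of lowest smooth muscle score it was 0.84, with an edgeR adjusted p of 0.00166. In heterozygous mice the difference of *Ret* from control was 0.41 ± 0.12 on the log2 scale, with an unadjusted p of 0.00212 and an adjusted p of 0.325 by edgeR, so it did not pass. Between homozygous and heterozygous mice it was 0.47 ± 0.12, with an unadjusted p of 0.000640 and an adjusted p of 0.522 by edgeR. DESeq2's Wald test placed this last difference just past the threshold, at an adjusted p of 0.0488, where it called 18 of the 15740 genes. The comparisons share libraries, so their values for *Ret* are not independent of each other. Of 106 other genes tested within 5 Mb of *Ret*, 60 were higher in homozygous mice than in controls, 4 had an unadjusted p under 0.05 by edgeR and 0 had an adjusted one.

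The genes of RET and endothelin signalling were read from a list of 13, all of them tested. Against controls, 12 of the 13 had a higher level in homozygous mice, with a median log2 fold change of 0.22, beside -0.00496 over all genes tested. None was called and 1 had an unadjusted p under 0.05 by edgeR, where 8.51% of all genes had one. DESeq2 and limma-voom too called none of the 130 genes tested on this and the other lists below, in any comparison. The gene under 0.05 was *Nrtn*, which encodes neurturin, the ligand that acts through GFRA2. *Nrtn* was at 5.41 CPM ± 1.37 in controls and 7.81 ± 1.95 in homozygous mice (SD, n = 6), a log2 difference of 0.53 ± 0.21 with an adjusted p of 0.515 by edgeR. *Gfra1*, the co-receptor for GDNF, was at 3.82 ± 1.56 CPM in controls and 6.01 ± 2.52 in homozygous mice, and *Gdnf* itself was at 3.34 ± 0.421 and 4.00 ± 0.736 CPM. Neither *Gfra1* nor *Gdnf* passed, with edgeR adjusted p-values of 0.604 and 0.702. In heterozygous mice 7 of the 13 were higher than in controls, with a median of 0.015 on the log2 scale, from -0.072 to 0.058 leaving out 1 library.

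*Elavl4* encodes the neuronal RNA-binding protein HuD, which marks enteric neurons of every class. It ranged from 0.605 to 3.06 CPM with a median of 2.34 in controls, from 0.970 to 3.74 with a median of 2.37 in heterozygous mice, and from 2.53 to 5.46 with a median of 3.37 in homozygous mice. The groups overlapped, and the lowest control and heterozygous values were those of the 2 libraries of lowest smooth muscle score. The log2 fold change in homozygous mice against controls was 0.76 ± 0.32, with an unadjusted p of 0.0307 and an adjusted p of 0.553 by edgeR. Without those 2 libraries the log2 fold change was 0.58. A two-sided exact permutation test over all arrangements of 6 against 6 mice gave p = 0.0325 for its mean log2 CPM. The other pan-neuronal genes, a list of 20 that included *Tubb3*, *Prph*, *Uchl1* and *Snap25*, were all tested, and all 20 had a higher level in homozygous mice than in controls, with a median log2 fold change of 0.56. None was called by edgeR, and 1 had an unadjusted p under 0.05, *Nefm*, a neurofilament subunit, at 0.865 ± 0.386 CPM in controls and 1.43 ± 0.499 in homozygous mice. *Stmn3* and *Syt1*, a microtubule regulator and a synaptic vesicle calcium sensor, had log2 fold changes of 0.73 ± 0.37 and 0.66 ± 0.38 with edgeR adjusted p-values of 0.609 and 0.662. In heterozygous mice 9 of the 20 were higher and 11 lower than in controls, with a median of -0.011. That count of 9 went down to 2 without control replicate 6 and up to 18 without control replicate 5 or heterozygous replicate 3, and the median lay between -0.21 and 0.12. In homozygous mice the median against controls was 0.36 without the 2 libraries of lowest smooth muscle score and 0.11 with the smooth muscle score as a covariate.

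*Chat* encodes choline acetyltransferase, the enzyme that makes acetylcholine in cholinergic neurons, and is also known from the tuft cells of the epithelium. It ranged from 1.21 to 2.66 CPM with a median of 1.88 in controls, from 1.24 to 2.87 with a median of 2.38 in heterozygous mice, and from 1.43 to 2.96 with a median of 2.04 in homozygous mice. The 3 ranges nearly coincided. Its log2 fold change against controls was 0.15 ± 0.24 in homozygous and 0.26 ± 0.24 in heterozygous mice, with unadjusted p-values of 0.537 and 0.281 by edgeR. Leaving out 1 library gave 0.020 (without homozygous replicate 5) to 0.30 (without control replicate 3) in homozygous mice and 0.17 (without heterozygous replicate 1) to 0.41 (without control replicate 3) in heterozygous mice. *Chat* lies at chr14:32408203-32465989 on the minus strand of GRCm38, and *Slc18a3*, the vesicular acetylcholine transporter, lies inside it on the same strand, so reads that fit both genes are in neither count. *Slc18a3* and 5 other cholinergic or excitatory genes were all higher in homozygous mice than in controls, with a median log2 fold change of 0.45, and none of the 6 was called or had an unadjusted p under 0.05 by edgeR. The median was 0.24 without control replicate 6. *Slc5a7*, the choline transporter, was at 1.11 ± 0.731 CPM in controls and 2.03 ± 0.785 in homozygous mice (log2 fold change 0.88 ± 0.47). *Ache*, acetylcholinesterase, was at 11.1 ± 2.10 and 13.4 ± 2.52 CPM, and *Calb2*, calretinin, at 4.91 ± 1.87 and 6.59 ± 1.53 CPM.

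*Nos1* encodes neuronal nitric oxide synthase of the inhibitory motor neurons. Its level varied most of the 8 members, 70.6-fold from the lowest to the highest library. It ranged from 0.353 to 12.5 CPM with a median of 5.82 in controls, from 0.485 to 10.7 with a median of 5.76 in heterozygous mice, and from 4.90 to 24.9 with a median of 10.0 in homozygous mice. The lowest values were in control replicate 6 (14 counts) and heterozygous replicate 3 (23 counts), and the highest was in homozygous replicate 3 (1095 counts). Its log2 fold change in homozygous mice against controls was 0.99 ± 0.61, the largest of the members and the least precise, with an unadjusted p of 0.125 and an adjusted p of 0.686 by edgeR. Without control replicate 6 and heterozygous replicate 3 it was 0.75. *Nos1* spans chr5:117781032-117958840 on the plus strand of GRCm38.

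*Vip* encodes vasoactive intestinal peptide, a transmitter of inhibitory motor and secretomotor neurons. It ranged from 6.88 to 26.4 CPM with a median of 17.9 in controls, from 5.96 to 18.9 with a median of 16.4 in heterozygous mice, and from 12.5 to 21.9 with a median of 14.3 in homozygous mice. It was the only member with a lower mean in homozygous mice than in controls, at 15.2 ± 3.49 against 18.3 ± 6.88 CPM (SD, n = 6), a log2 fold change of -0.26 ± 0.26 with an unadjusted p of 0.319 by edgeR. Leaving out 1 library gave -0.41 (without control replicate 6) to -0.14 (without control replicate 1). Of 6 other inhibitory neuron genes 5 were tested, *Adcyap1* having too few counts. Of the 5, 4 were higher in homozygous mice than in controls, with a median log2 fold change of 0.42, none was called by edgeR, and 1 had an unadjusted p under 0.05. That gene was *Etv1*, a transcription factor, at 9.01 ± 2.70 CPM in controls and 12.9 ± 2.59 in homozygous mice (log2 fold change 0.52 ± 0.16, edgeR adjusted p 0.320). *Npy*, neuropeptide Y, was lower, at 3.01 ± 0.841 against 2.14 ± 1.17 CPM, and *Ass1*, which supplies arginine for nitric oxide synthesis, was at 15.7 ± 4.71 and 18.1 ± 4.47 CPM. The median of 0.42 was 0.15 without homozygous replicate 3 and 0.18 without control replicate 6. All 5 were lower in heterozygous mice than in controls, with a median of -0.30, which was -0.16 with 4 of the 5 lower without heterozygous replicate 3 and -0.42 without control replicate 6. With the smooth muscle score as a covariate, 1 of the 5 was higher in homozygous mice than in controls and the median turned to -0.33.

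*Tac1* encodes the precursor of substance P and neurokinin A, excitatory tachykinins of enteric neurons, and is also known from serotonin-producing enteroendocrine cells. It ranged from 6.12 to 9.90 CPM with a median of 8.12 in controls, from 5.55 to 7.85 with a median of 7.25 in heterozygous mice, and from 7.92 to 11.0 with a median of 9.83 in homozygous mice. The highest heterozygous mouse was just below the lowest homozygous mouse, and both ranges overlapped that of the controls. Against controls the log2 fold change was 0.29 ± 0.12 in homozygous mice, with an unadjusted p of 0.0233 and an adjusted p of 0.532 by edgeR. The two-sided exact permutation test of homozygous against control mice gave p = 0.0606. In heterozygous mice the log2 fold change against controls was -0.14 ± 0.12, where leaving out 1 library gave -0.19 (without control replicate 3) to -0.070 (without control replicate 5). Between homozygous and heterozygous mice the log2 fold change was 0.42 ± 0.12, with an unadjusted p of 0.00174 and an adjusted p of 0.522 by edgeR. There the exact permutation test gave p = 0.00216, the smallest such a test allows with 6 mice in either group. Of 10 sensory neuron and interneuron genes 8 were tested, and all 8 were higher in homozygous mice than in controls with a median log2 fold change of 0.74. That median was 0.38 without homozygous replicate 3, and without control replicate 6 it was 0.55 with 7 of the 8 higher. None was called by edgeR and 1 had an unadjusted p under 0.05, *Grp*, gastrin-releasing peptide, at 0.327 ± 0.188 CPM in controls and 0.846 ± 0.468 in homozygous mice. *Htr3a*, a subunit of the serotonin-gated channel, was at 2.42 ± 1.27 and 3.99 ± 1.32 CPM, and *Calca*, the CGRP precursor, at 0.156 ± 0.172 and 0.589 ± 0.670 CPM.

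*Sox10* encodes a transcription factor of neural crest cells and enteric glia. It ranged from 0.580 to 5.04 CPM with a median of 2.78 in controls, from 1.08 to 3.31 with a median of 2.84 in heterozygous mice, and from 2.61 to 6.66 with a median of 4.12 in homozygous mice. The groups overlapped, and the lowest control and heterozygous mice were again replicates 6 and 3. Its log2 fold change was 0.63 ± 0.36 against controls in homozygous mice, with an unadjusted p of 0.0936 by edgeR, and -0.16 ± 0.36 in heterozygous mice. Without those 2 libraries it was 0.43 in homozygous mice. *S100b* encodes a calcium-binding protein of glia. It ranged from 0.328 to 2.04 CPM with a median of 1.68 in controls, from 0.654 to 1.27 with a median of 1.08 in heterozygous mice, and from 1.50 to 1.86 with a median of 1.75 in homozygous mice. Homozygous mice were close together, all above the heterozygous mice and all within the range of the controls. Between homozygous and heterozygous mice the log2 fold change of *S100b* was 0.67 ± 0.29, with an unadjusted p of 0.0326 and an adjusted p of 0.637 by edgeR, and the exact permutation test gave p = 0.00216. Against controls the log2 fold change in homozygous mice was 0.25 with all libraries and 0.056 without those 2. *S100b* overlaps *Dip2a* on the opposite strand, a gene with a median of 2723.5 counts, and whether the counting used strand is not given in the sources used here. Without strand, reads from the 2 genes cannot be told apart where they overlap.

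Among 13 other glial genes tested, 11 were higher in homozygous mice than in controls, with a median log2 fold change of 0.32, which was 0.20 without control replicate 6 and 0.60 without control replicate 2. None was called by edgeR, and 2 had an unadjusted p under 0.05. These were *Scn7a*, a sodium channel of glia, at 11.4 ± 3.89 CPM in controls and 16.8 ± 4.17 in homozygous mice, and *Lgi4*, a secreted glial protein, at 1.94 ± 0.907 and 3.32 ± 1.34 CPM. *Gfap*, the glial intermediate filament, was at 1.35 ± 0.711 and 2.40 ± 1.12 CPM. Not all of the list is limited to glia: *Erbb3*, also an epithelial receptor, was at 597 CPM in controls, with a log2 fold change of -0.015. In heterozygous mice 7 of the 13 were higher than in controls, with a median of 0.00048, a count that went down to 3 without control replicate 6 and up to 9 without control replicate 2, and a median that lay between -0.19 and 0.079.

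Counted over the 8 members, 7 were higher in homozygous mice than in controls with a median log2 fold change of 0.46. By edgeR, 3 had an unadjusted p under 0.05 (*Ret*, *Elavl4* and *Tac1*), where 8.51% of all genes had one. The count of 3 was 1 without control replicate 3 and 1 without control replicate 6. In heterozygous mice 4 of the 8 were higher than in controls with a median of -0.019 (from -0.16 without control replicate 6 to 0.17 without heterozygous replicate 3), none was called where 0.254% of all genes were, and 1 had an unadjusted p under 0.05 where 4.76% of all genes had one. DESeq2 and limma-voom also called none of the 8 in heterozygous mice. Between homozygous and heterozygous mice 6 of the 8 were higher with a median of 0.51, and 4 had an unadjusted p under 0.05 by edgeR (*Ret*, *Tac1*, *Sox10* and *S100b*) where 7.78% of all genes had one. The count of 4 was 2 without heterozygous replicate 3. With the smooth muscle score as a covariate in edgeR's fit, the median over the 8 was 0.20 in homozygous and 0.18 in heterozygous mice against controls and 0.060 between homozygous and heterozygous mice, with 2, 3 and 2 members at an unadjusted p under 0.05. Of all 15740 genes tested, 1081, 858 and 593 had such a p in that fit. All 10 smooth muscle genes were higher in homozygous than in heterozygous mice, by 0.56 to 0.93 on the log2 scale. Of the 10, 1 had an unadjusted p under 0.05 by edgeR, but 9 did without control replicate 6. No gene at all was called by edgeR in that comparison (0%), limma-voom called none, and DESeq2 called 18 genes. *Tac1* and *S100b* were the members whose homozygous libraries were all above the heterozygous ones, which held for 0.203% of all genes. The members share libraries and vary together, so these counts are not counts of independent genes.

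**Figure D2:**
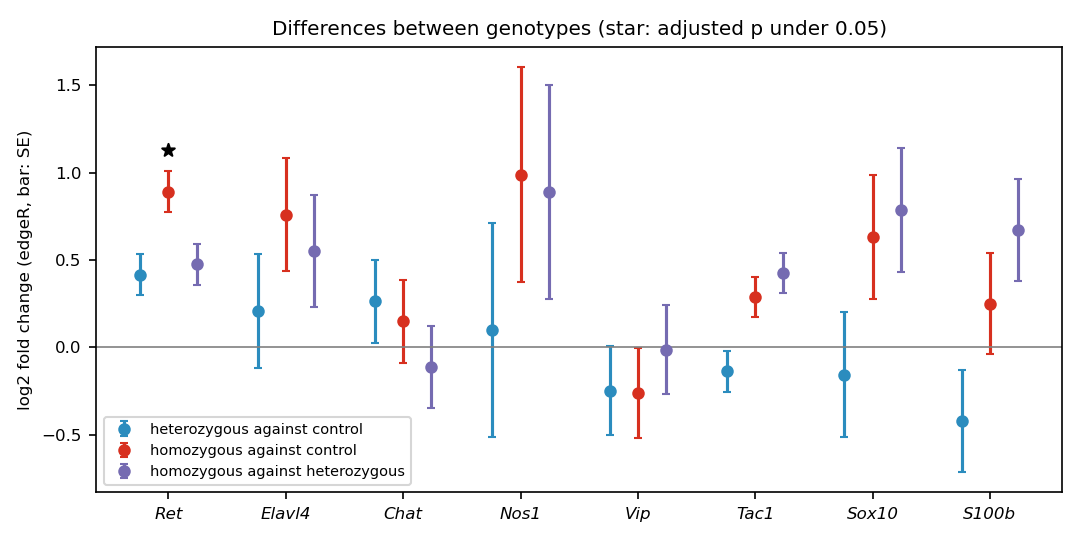
Log2 fold change (y axis, points) with its SE (bars) from edgeR for each member (x axis) in heterozygous against control, homozygous against control and homozygous against heterozygous mice. The star marks the single adjusted p under 0.05, *Ret* at 0.89 ± 0.12 in homozygous mice against controls. *Nos1*, at 0.99 ± 0.61, has a larger value with a wider bar.

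The receptors on which these transmitters act were read from a list of 11 genes that also held the kinase gene *Prkg1*. Of the 11, 10 were higher in homozygous mice than in controls, with a median log2 fold change of 0.31, none was called and 1 had an unadjusted p under 0.05 by edgeR. That gene was *Gucy1b1*, a subunit of the guanylate cyclase that senses nitric oxide, at 19.0 ± 4.33 CPM in controls and 23.8 ± 5.43 in homozygous mice. *Prkg1*, the kinase downstream of it, was at 7.07 ± 2.22 and 10.0 ± 3.44 CPM, and *Chrm3*, the muscarinic receptor of smooth muscle, at 5.06 ± 0.805 and 6.28 ± 1.11 CPM. Of 5 genes of interstitial cells, 4 were higher and 3 had an unadjusted p under 0.05, with none called by edgeR. The count of 3 was 1 without control replicate 3, control replicate 6 or homozygous replicate 3. For each list of neural, glial, signalling, receptor or interstitial genes, leaving out 1 library gave between 0 and 3 genes with an unadjusted p under 0.05 in this comparison and none called. *Pdgfra* was at 84.8 ± 11.4 CPM in controls and 107 ± 16.4 in homozygous mice (edgeR adjusted p 0.403), *Kcnn3* at 12.8 ± 4.40 and 19.5 ± 5.15, and *Ano1*, the chloride channel of the pacemaker cells, at 28.5 ± 9.88 and 38.5 ± 13.6 CPM. Genes of other parts of the wall were read in the same comparison. All 10 smooth muscle genes were higher in homozygous mice than in controls with a median log2 fold change of 0.57, and all 6 fibroblast genes were higher with a median of 0.36. The smooth muscle median was 0.35 without control replicate 6, and the fibroblast median was 0.17 without homozygous replicate 3, 0.23 without control replicate 6 and 0.56 without control replicate 4. Of 7 epithelial genes 1 was higher (median -0.065), of 10 enteroendocrine genes 1 (median -0.15), and of 8 tuft cell genes 1 (median -0.20). Leaving out 1 library, these 3 medians stayed below 0, from -0.12 to -0.010, -0.19 to -0.091 and -0.31 to -0.11. None of the smooth muscle, fibroblast or epithelial genes had an unadjusted p under 0.05 by edgeR, but 5 of the 6 fibroblast genes did without control replicate 4 and 2 of the 10 smooth muscle genes without control replicate 5. Of the enteroendocrine genes 2 had an unadjusted p under 0.05 by edgeR (*Tph1*, serotonin synthesis, and *Insm1*, a transcription factor) and of the tuft cell genes 1 (*Il25*, a cytokine), all 3 lower in homozygous mice and named after their values were seen. Leaving out 1 library gave 1 to 2 such enteroendocrine genes and 0 to 2 such tuft cell genes. In heterozygous mice all 10 smooth muscle genes were lower than in controls, but 6 of the 10 were higher without heterozygous replicate 3. In homozygous mice all 8 B cell genes were lower than in controls, with a median log2 fold change of -3.11. All 8 had an unadjusted p under 0.05 by edgeR, but none did without control replicate 2 or without control replicate 3. The B cell score (mean log2 CPM) was 5.75 and 5.43 in these 2 controls, 4.92 in heterozygous replicate 2 and 3.08 in homozygous replicate 1, and lay between -0.46 and 0.57 in the other 14 libraries. None of these genes was called, and their part in the differences of the members was not tested.

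**Figure D3:**
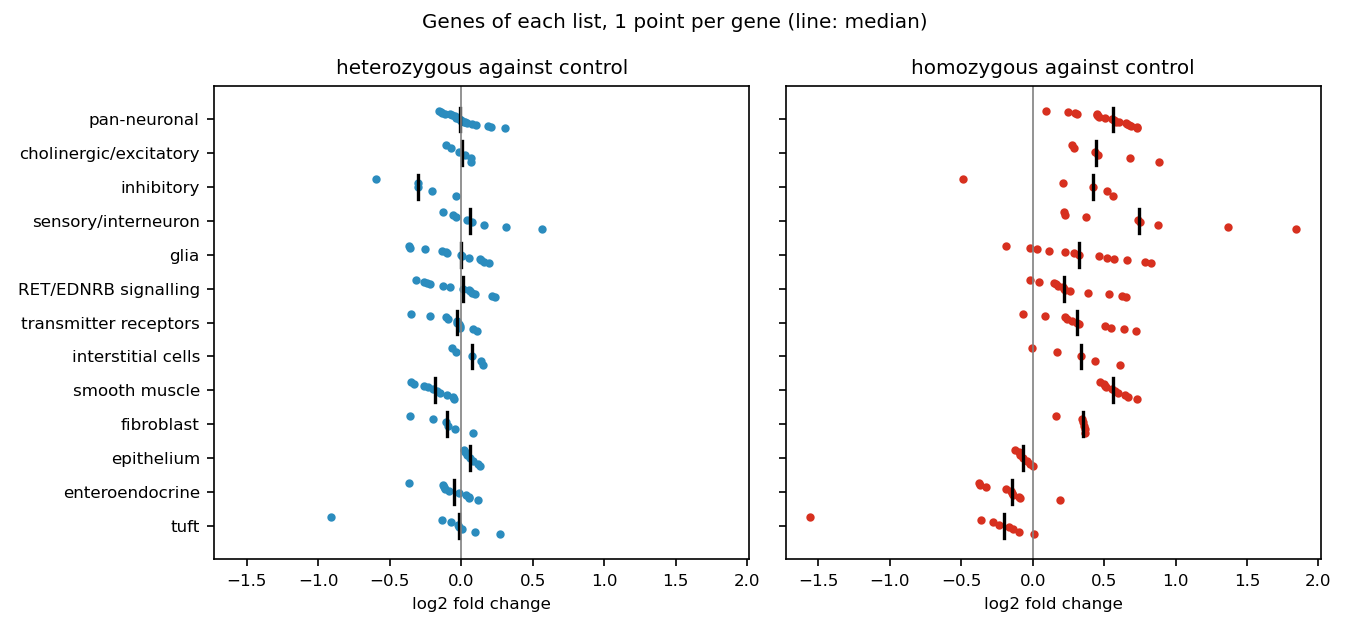
Log2 fold change against control (x axis) of the genes of each list (y axis) in heterozygous mice (left) and homozygous mice (right), with 1 point per gene and a line at the median. In homozygous mice the pan-neuronal median is 0.56 and the smooth muscle median is 0.57, and in heterozygous mice they are -0.011 and -0.18, the last from -0.41 without control replicate 6 to 0.016 without heterozygous replicate 3.

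Most members followed the smooth muscle score. Over the 18 libraries, Pearson's r of log2 CPM with the smooth muscle score was 0.97 for *Nos1*, 0.93 for *Elavl4*, 0.93 for *Sox10*, 0.90 for *S100b* and 0.77 for *Tac1*. Spearman's rho for these 5 genes was 0.87, 0.78, 0.92, 0.76 and 0.82, and their adjusted permutation p-values for r over the 48 pairs of member and marker list were at most 0.000240. Without the 2 libraries farthest from the median score, r was 0.86 for *Nos1*, 0.83 for *Elavl4*, 0.85 for *Sox10*, 0.67 for *S100b* and 0.77 for *Tac1*. Within the homozygous mice alone r was 0.89, 0.92 and 0.87 for *Nos1*, *Elavl4* and *Sox10*, but 0.18 for *S100b* and 0.40 for *Tac1*. *Ret* followed the score less closely, with r = 0.60 and rho = 0.53, adjusted permutation p-values of 0.0297 and 0.0754, and r = 0.67 without the 2 farthest libraries. Within genotypes, r for *Ret* was 0.86 among the controls, 0.84 among the homozygous mice and 0.13 among the heterozygous mice. *Vip* and *Chat* did not pass, with r of 0.49 and 0.30 and adjusted permutation p-values of 0.0939 and 0.441.

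**Figure D4:**
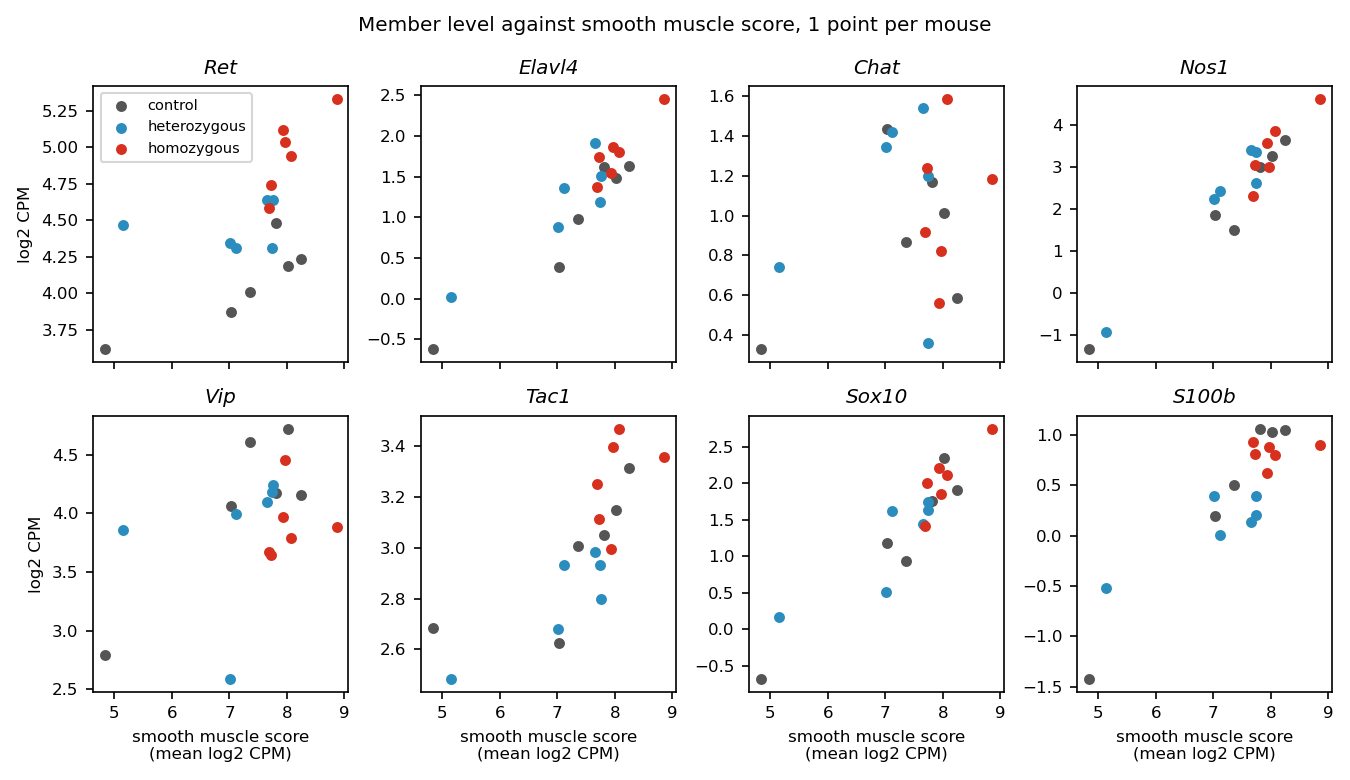
Log2 CPM of each member (y axis) against the smooth muscle score (x axis, mean log2 CPM of 10 muscle genes), 1 point per mouse, coloured by genotype. The 2 points at the far left are control replicate 6 and heterozygous replicate 3, at scores of 4.83 and 5.14. *Nos1*, *Elavl4*, *Sox10* and *S100b* lie along a rising line (r of 0.90 to 0.97), while for *Ret* the homozygous mice lie above the controls of like score.

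In the 2 libraries of lowest smooth muscle score the members were lowered to different degrees, and *Ret* was not lower in one of them. In control replicate 6, *Nos1* was at 4.40% of the median of the other 5 controls, *S100b* at 16.4%, *Sox10* at 17.4% and *Elavl4* at 22.0%. *Vip* was at 38.3% of that median, *Chat* at 61.3%, *Ret* at 67.3% and *Tac1* at 77.4%. In heterozygous replicate 3, *Nos1* was at 7.94% of the median of the other 5 heterozygous mice and *Sox10* at 35.7%, while *Ret* was at 109%. Without these 2 libraries the log2 fold change in homozygous mice against controls was -0.41 for *Vip*, 0.26 for *Tac1* and 0.075 for *Chat*. The share of *Ret* RNA that came from neurons of the muscle layers was not tested.

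With the smooth muscle score as a covariate in edgeR's fit, the log2 fold change of *Ret* in homozygous mice against controls was 0.80 ± 0.11, with an adjusted p of 0.000651. *Ret* remained the only member called, where 56 of all 15740 genes tested were called in that fit. Of the other 7 members, 6 came closer to 0. *Nos1* went from 0.99 to 0.22 ± 0.20, *Sox10* from 0.63 to 0.22 ± 0.18, *Elavl4* from 0.76 to 0.36 ± 0.16 and *S100b* from 0.25 to 0.00021 ± 0.20. *Vip*, at -0.42 ± 0.24, moved further below 0. The covariate also took the pan-neuronal median to 0.11 and the glial median to 0.11. For *Ret* in heterozygous mice against controls the fit gave 0.45 ± 0.10 with an adjusted p of 0.101.

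**Figure D5:**
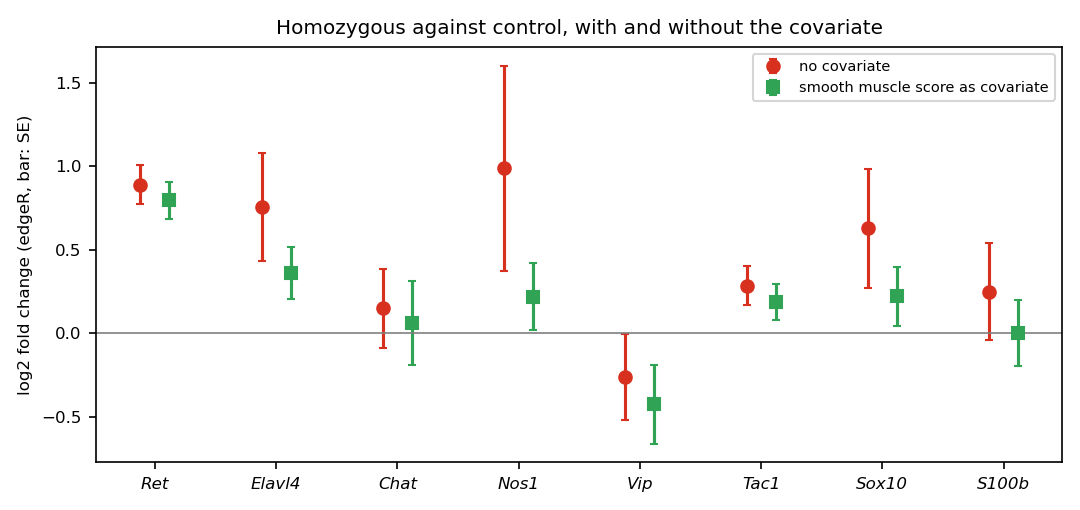
Log2 fold change (y axis) with SE (bars) in homozygous against control mice for each member (x axis), from edgeR's fit without a covariate (circles) and with the smooth muscle score as a covariate (squares). *Ret* is at 0.89 and 0.80, and *Nos1* goes from 0.99 to 0.22.

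The other scores were compared in the same way. With the fibroblast score, 5 of the 8 members passed by both Pearson's and Spearman's adjusted permutation p-value, *Sox10* most closely (r = 0.86, rho = 0.86, adjusted permutation p = 0.000120), and 2 did so on TMM-normalized values. With the epithelial score r was negative for all 8 members, except that *Chat* turned to 0.11 on TMM-normalized values, and 2 passed by both measures, *Elavl4* (r = -0.58) and *Sox10* (r = -0.61). *Vip* was the only member that followed the enteroendocrine score (r = 0.59, rho = 0.61, adjusted permutation p = 0.0279), and it no longer passed on TMM-normalized values (r = 0.36, adjusted permutation p = 0.284). None of the 8 passed with the tuft cell or the B cell score, and the closest with the tuft cell score was *Chat* (r = 0.46, adjusted permutation p = 0.137). Each score shares its libraries and depth with the members.

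Among themselves, 4 members moved together over the 18 libraries. The pair most alike was *Elavl4* and *Nos1* (r = 0.94), followed by *Nos1* and *Sox10* (0.93), *Elavl4* and *Sox10* (0.91) and *Sox10* and *S100b* (0.83). *Chat* and *Vip* were at the other end (r = -0.011), and *Chat* reached at most 0.35, with *Nos1*. These are descriptions over 18 libraries that differ in smooth muscle score. The 250 bases before a RefSeq transcription start (GRCm38.p6) were found for 6 of the 8 members. Those of 3 members are shown, since *Elavl4* and *S100b* followed the smooth muscle score and *Vip* did not. Capitals mark CGTCA, a short form of the cAMP response element, or its reverse complement TGACG. The windows are chr4:110351912-110352161 (minus strand), chr10:76253586-76253835 (plus strand) and chr10:5638968-5639217 (plus strand).
Elavl4: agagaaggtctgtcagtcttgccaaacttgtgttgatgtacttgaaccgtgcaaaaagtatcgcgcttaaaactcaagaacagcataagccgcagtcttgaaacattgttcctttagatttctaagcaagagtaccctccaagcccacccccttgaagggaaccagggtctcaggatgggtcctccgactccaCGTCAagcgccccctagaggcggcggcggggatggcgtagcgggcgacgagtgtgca
S100b: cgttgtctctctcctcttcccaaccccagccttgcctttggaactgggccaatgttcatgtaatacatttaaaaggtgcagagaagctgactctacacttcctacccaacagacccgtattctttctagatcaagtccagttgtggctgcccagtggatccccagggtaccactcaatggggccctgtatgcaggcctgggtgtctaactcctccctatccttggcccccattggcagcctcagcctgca
Vip: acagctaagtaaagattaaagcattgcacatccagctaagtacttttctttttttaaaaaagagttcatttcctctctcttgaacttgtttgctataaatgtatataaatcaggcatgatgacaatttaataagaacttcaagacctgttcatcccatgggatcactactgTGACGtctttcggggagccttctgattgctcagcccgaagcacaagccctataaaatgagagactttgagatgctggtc
CGTCA was found on either strand before at least 1 start of 5 of the 6 members, all but *S100b*, and of 19.8% of the 27025 genes in the table. AGGTCA, the unit of the element bound by nuclear receptors such as PPARα, was found in 1 of the 6, *Elavl4*, at an internal start that is not the one shown, and in 15.8% of all genes. The direct repeat AGGTCANAGGTCA was found in none of the 6 and in 0.0407% of all genes, and TGACGTCA in none of the 6 and in 1.77%. A match is a run of letters and not a shown binding site.

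The genes whose level was most like that of each member were taken by Pearson's r of log2 CPM over the 18 libraries among all 15740 genes tested. For *Ret* they were *Plekho2* (r = 0.87), *Acacb* (0.86) and *Pdzd4* (0.86). For *Nos1* they were *Pgm5*, *Scube2* and *Synm* (0.99 each), and for *Elavl4* *Myom1* (0.97), *Pygm* (0.97) and *Brsk2* (0.96). *Pgm5*, *Synm*, *Myom1* and *Pygm* are known from muscle. For *Sox10* they included *Kcnh2* (0.98) and *Clip3* (0.97), and for *S100b* *Nell1*, *Sh3bgr* (0.93 each) and *Gfra4* (0.92). For *Vip* the nearest was *Dbh* (0.90), the enzyme that makes noradrenaline, and then *Angptl1* (0.87) and *Dele1* (0.83). For *Tac1* they were *Id4* (0.89), *Npy4r* (0.88) and *Fibin* (0.86). For *Chat* they were *Krt4* (0.80), *Gfi1b* (0.76), a transcription factor known from tuft cells, and *Prkag3* (0.74). *Chat* did not pass with the tuft cell score (r = 0.46, adjusted permutation p = 0.137). These are the highest values of r among all genes tested, and no chance level was computed for them.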

How the data were processed

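Poly-A RNA of whole-thickness ileum from 18 mice was sequenced. The authors aligned the paired reads by STAR (GRCm38, Ensembl primary assembly), and the deposited counts are unnormalized featureCounts totals of unique, unambiguous reads. The CPM and FPKM values deposited by the authors divide these counts by the library total and, for FPKM, by gene length. The deposited log2 CPM values were not used. The members and gene lists were chosen with earlier results of these data known.

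Protein-coding genes with at least 10 counts in at least 6 libraries (15740 genes) were compared with edgeR 4.0.16 in R 4.3.3 (glmQLFit and glmQLFTest, TMM, 1 coefficient per genotype, all 18 libraries, no covariates), with p-values adjusted by the Benjamini-Hochberg method over all genes tested, at 0.05. The study's filter, more than 3 CPM in at least 4 libraries, left 12645 genes and was used as an alternative, since members are expressed at a low level. Each member was also put to a two-sided exact permutation test of mean log2 CPM (prior count of 2), 24 tests in all, not adjusted. Correlations have 100000 permutations, adjusted over 48 pairs. Alternatives were DESeq2 1.42.0, limma-voom (limma 3.58.1), other size factors and filters, 2 genotypes only, sex or the smooth muscle score as covariate, the replicate number as a block and leaving out each library. Fits were tested on simulated data. No libraries held identical values. Named genes are the members, list genes with an adjusted p under 0.05, the 3 of each neural, glial, signalling, receptor or interstitial list with the lowest p in homozygous against control mice, the 3 genes most like each member, and *Ppara*. Other genes were named after their values were seen (*Slc18a3*, *Erbb3*, *Dip2a* and examples of the pan-neuronal list). Sequences are from RefSeq. Promoters and proteins of some members were not analysed here. A gene among those most like the members is not reported here.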

Additional observations from a re-analysis of the deposited data

Results flagged for a closer look

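In 27 sets of 6 mice (each member's CPM and the smooth muscle score, by genotype), 6 values, from 5 mice, stood apart by Dixon's test at the 95% level, where chance gives about 1 set in 20. On the smooth muscle score these were control replicate 6 at 4.83, heterozygous replicate 3 at 5.14 and homozygous replicate 3 at 8.86. Homozygous replicate 3 also stood apart for *Elavl4*, at 5.46 CPM. For *Vip*, heterozygous replicate 5 was low at 5.96 CPM and homozygous replicate 1 was high at 21.9 CPM.

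*Tac1* and *S100b* took opposite directions in the 2 IEC-*Ppara* genotypes, with every homozygous mouse above the mean of the controls and every heterozygous mouse below it. This rests on the controls taken into the mean. For *S100b*, whose control mean was 1.71 CPM without control replicate 6, 4 of the 6 homozygous mice were then above it, and 5 of 6 were without control replicate 1 or 3. Leaving out 1 control, it held for *Tac1* only without replicate 1, and without any other control between 1 and 3 mice lay on the other side. No difference of *S100b* from controls passed (unadjusted p of 0.397 in homozygous and 0.164 in heterozygous mice by edgeR). The homozygous mice differed from the heterozygous mice by 0.42 for *Tac1* and by 0.67 for *S100b* on the log2 scale. Neither difference passed edgeR's adjusted p over all genes (0.522 and 0.637). With the smooth muscle score as a covariate they were 0.31 and 0.22, and the part of muscle content in them was not tested further.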

How the results depend on the processing

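*Ret* in homozygous against control mice passed under every setting run, with log2 fold changes of 0.80 to 0.90 and, leaving out 1 library each, 0.83 to 0.97. The number of members called stayed at 1 in homozygous and 0 in heterozygous mice against controls under every setting. Between homozygous and heterozygous mice it was 0 except by DESeq2, which called 1 (*Ret*). The number of all genes called moved more. DESeq2 called 141, 77 and 18 genes in homozygous against control, heterozygous against control and homozygous against heterozygous mice, where edgeR called 53, 40 and 0. For heterozygous against control mice edgeR called 24 with 2 genotypes only, 23 with a replicate block and 23 without the 2 libraries of lowest smooth muscle score, the last chosen after seeing the data. Library size in place of TMM called 1 gene in homozygous against heterozygous mice. Leaving out 1 library gave 46 to 65, 28 to 53 and 0 to 2 genes.

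With the smooth muscle score as a covariate, 3 differences that had not passed changed sign: *Sox10* in heterozygous against control mice (0.079), and *Elavl4* (-0.021) and *Nos1* (-0.31) in homozygous against heterozygous mice. *Vip* in homozygous against heterozygous mice was 0.035 by limma-voom and 0.013 with library size, and -0.17 to 0.056 leaving out 1 library. In heterozygous against control mice, leaving out 1 library gave -0.14 to 0.44 for *Nos1* and -0.36 to 0.070 for *Sox10*. On TMM-normalized values, 4 correlations that had not passed changed sign, those of *Sox10* (-0.30) and *S100b* (-0.099) with the enteroendocrine score, *Nos1* with the B cell score (-0.026) and *Chat* with the epithelial score (0.11), and 7 that had passed no longer did. Among these was *Ret* with the smooth muscle score (r = 0.55, adjusted permutation p = 0.0623).

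Same-numbered mice of 2 genotypes had deviations correlated from -0.48 to 0.51. Mice of different numbers were not compared, so whether replicate numbers pair the mice stayed unknown. In the paired fit with a replicate block, *Ret* kept an edgeR adjusted p of 0.00732 and 50, 23 and 0 genes were called. Depth limits the lowest members, *S100b* with 13 to 103 and *Chat* with 48 to 136 counts a library.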
